A study of Mus musculus with 4 samples.

Results

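Effector and memory CD4 T cells of the mouse lung were picked from single-cell libraries of sorted immune cells by the transcripts they held. A member was a barcode with more than 200 genes, under 15% of its transcripts from mitochondrial genes, at least 1 unique molecular identifier (UMI, a tag that marks 1 captured transcript) of each of Cd3e, Cd4 and S100a4, and no UMI of Cd8a, Cd8b1, Foxp3, Cd79a, Mki67 or Ccr7. This gave 181 members among 27544 barcodes that passed the same quality limits, and among 2336 CD4 T cells chosen in the same way without the S100a4 and Ccr7 conditions. The cells came from male C57BL/6 mice, 5 to 10 weeks of age, that were either Ift20 f/f (WT) or Ift20 f/f CD4 cre (KO), so both genotypes carried the floxed Ift20 alleles. Papain, a cysteine protease used as an allergen, was given intranasally at 25 µg on each of 3 successive days and once more on day 14, and control mice received DPBS, a buffer. Live CD45.2-positive lung cells, those without 7-AAD stain, were sorted on day 15 and 1 library was made per combination (DPBS WT, DPBS KO, Papain WT, Papain KO). Members numbered 20 and 13 in the DPBS libraries (WT, then KO) and 110 and 38 in the papain libraries. Where 4 values stand in a row below, they follow that order, DPBS before papain and WT before KO. The CD4 cre transgene acts in developing T cells and so also reaches the CD8 lineage, and the sources used here do not give the number of mice behind a library.

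Naive CD4 T cells circulate through lymph nodes with the help of the homing receptor CCR7. After they meet antigen they divide and become effector and memory cells, which lose this receptor, gain S100 proteins, adhesion molecules and receptors for inflamed tissue, and take up the type 2 helper programme led by GATA3, with IL-4, IL-5 and IL-13, the type 1 programme led by T-bet, with interferon-γ, or the type 17 programme, with IL-17. In papain-treated airways type 2 cytokines drive eosinophilia and mucus, and the alarmin IL-33, which signals through the receptor ST2 encoded by Il1rl1, acts on type 2 helper cells. IFT20 belongs to the intraflagellar transport complex B that builds cilia, and in T cells, which have no cilium, it takes part in vesicle traffic to the immune synapse.

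With 1 library for each combination of genotype and treatment there was no replicate, and genotype, treatment and library cannot be told apart. No test was therefore made between libraries. The UMIs of all members of a library were summed and given as counts per 1000000 UMIs (CPM), and log2 ratios of 2 libraries carry 95% intervals. These intervals, like those of the shares, cover counting error only, and they do not cover differences between mice or between the few cells that hold many copies of 1 transcript. A gene was called past 2-fold by its ratio alone. The libraries held between 53854420 and 75675956 UMIs in all. The members held 162368, 129807, 921025 and 310991 UMIs, with medians of 6496, 7289, 6397 and 7012 UMIs per cell. A level below 3 UMIs, taken as the floor, corresponds to 18.5 CPM, 23.1 CPM, 3.26 CPM and 9.65 CPM in the same order.

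The label was checked on genes the choice did not use. A UMI of Trac, the constant segment of the T cell receptor α chain, was seen in 97.3% of Papain WT members and 97.4% of Papain KO members. Markers of macrophages were not absent, however. In 21 of the 181 members (4, 2, 11 and 4 by library), a list of macrophage and monocyte genes took more than 0.3% of the UMIs, and in 4 of these 21 a list of B cell genes took more than 0.5%. These barcodes are called mixed here. Their median depth was 15758, 19233, 17129 and 18890 UMIs in the 4 libraries, above the 5946, 7097, 6239 and 6729 UMIs of the remaining members. Of the UMIs of Lyz2, the lysozyme gene of macrophages, 1114 of 1125 in DPBS WT and 2664 of 2730 in Papain WT lay in mixed barcodes. The summed macrophage list stood at 12416, 5624, 5954 and 4833 CPM in all members and at 699, 668, 587 and 751 CPM without the mixed ones. Where leaving them out moved a ratio between libraries by more than 1.5 times, the value without them is given too. Free RNA also reached other cells. Among B cells, at median depths of 4027, 4317, 4611 and 4982 UMIs in the 4 libraries, 7.75%, 6.33%, 15.8% and 9.90% held a UMI of S100a4, so a single S100a4 UMI is a weak mark, and the share was highest in Papain WT, the library with the most members. A UMI of Cd4 was seen in 0.476% of the B cells of DPBS WT. S100a4 was present as exactly 1 UMI in 5, 0, 17 and 1 members, and its median over members was 6.5, 5, 6 and 8.5 UMIs. Just outside the choice lay 28, 19, 70 and 26 cells with UMIs of both S100a4 and Ccr7, and 108, 37, 100 and 45 cells with neither.

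Effector and memory cells were a larger fraction of the CD4 T cells after papain in both genotypes, and in papain-treated lungs the fraction was smaller in the KO library than in the WT library. They made up 2.99% of CD4 T cells in DPBS WT (20 of 668, 95% Clopper-Pearson interval 1.84% to 4.59%) and 3.02% in DPBS KO (13 of 431, 1.62% to 5.10%). The share was 14.4% in Papain WT (110 of 764, 12.0% to 17.1%) and 8.03% in Papain KO (38 of 473, 5.75% to 10.9%). The intervals of the papain libraries overlapped neither each other nor those of the DPBS libraries, while the DPBS libraries overlapped almost wholly. The share in KO over that in WT gave a log2 ratio of -0.84 after papain (-1.41 to -0.30) and 0.01 after DPBS (-1.12 to 1.09). The ratio of papain to DPBS was 2.27 in WT (1.57 to 3.03) and 1.41 in KO (0.47 to 2.45). Whether the genotype ratio differed between the treatments was not tested. Leaving out the mixed barcodes gave shares of 2.54%, 2.64%, 13.9% and 7.36%. With S100a4 at 2 or more UMIs, the members numbered 15 of 668, 13 of 431, 93 of 764 and 37 of 473. Intervals were not computed for these counts. The lack of overlap between the papain libraries is therefore given only for the choice with at least 1 S100a4 UMI, a weak mark. Cells of the opposite pattern, with Ccr7 and without S100a4, are called naive-type here, and they made up 76.6%, 84.0%, 63.4% and 77.0% of the CD4 T cells. Among all barcodes kept, the members made up 0.246%, 0.228%, 1.38% and 0.666%. The log2 ratio of KO to WT after papain was then -1.05 (-1.62 to -0.50). A smaller share can arise from fewer effector cells or from more of the other cells, and which of these held was not tested.

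**Figure D1:**
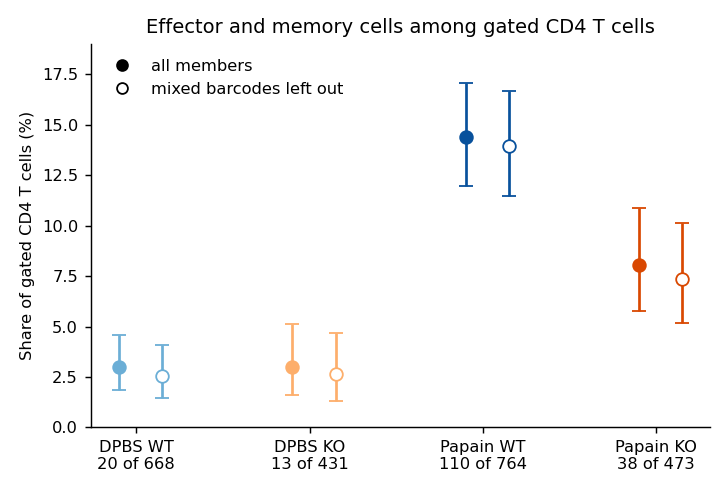
Share of effector and memory cells among gated CD4 T cells (vertical axis, percent) in each of the 4 libraries, with filled points for all members, open points for the count without mixed barcodes and bars for 95% Clopper-Pearson intervals. The shares were 2.99%, 3.02%, 14.4% and 8.03%, and the open points lie at 2.54%, 2.64%, 13.9% and 7.36%.

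Compared with the naive-type cells of the same library, the members carried more transcripts of adhesion, migration and effector genes and fewer of genes of circulating naive cells. As S100a4 and Ccr7 separated both sets, this comparison describes what the choice gathered and is not a test. Of 6238 genes with at least 160 UMIs in both sets together, 205 (3.29%) were at least 2-fold higher in the members of all 4 libraries and 39 (0.625%) at least 2-fold lower. A list of effector and adhesion genes (S100 proteins, annexins, galectins and integrins) had medians of 1.51, 1.89, 1.71 and 2.23 on the log2 scale in the 4 libraries, beside 0.28, 0.11, 0.26 and 0.29 for all genes. Of its 24 genes tested, 19, 21, 21 and 21 were at least 2-fold higher, where 14.9%, 14.4%, 11.2% and 14.3% of all genes were. S100a6, a calcium-binding partner of the gene used in the choice, stood at 1041, 1217, 1256 and 1264 CPM in members, against 28.4, 8.22, 64.6 and 12.0 CPM in naive-type cells. Ahnak, which encodes a giant scaffold protein, stood at 449.6, 393, 547 and 354 CPM against 50.3, 59.6, 48.7 and 27.6 CPM. These 2 genes were far higher in the members in every library, with no overlap between the sets. Both were named for being high in all 4 libraries, so this separation follows from how they were picked.

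Receptors that bring T cells into inflamed tissue, and a cytokine receptor chain, were likewise far lower in the naive-type cells. Ccr2, a receptor for monocyte-attracting chemokines, stood at 123, 139, 142 and 67.5 CPM in the members of the 4 libraries, against 2.81, 3.29, 5.73 and 1.20 CPM. Cxcr3, the receptor for interferon-induced chemokines, stood at 98.5, 46.2, 77.1 and 99.7 CPM against 1.87, 6.17, 5.73 and 5.61 CPM. Il2rb, the chain shared by the IL-2 and IL-15 receptors that memory cells need, stood at 222, 139, 228 and 257 CPM against 13.1, 16.4, 19.4 and 8.82 CPM. In all 3 the lowest member library lay above the highest naive-type one, which follows from how they were picked, by their difference in all 4 libraries. Rora, a transcription factor of type 2 and type 17 cells, stood at 339, 231, 565 and 383 CPM against 29.7, 42.3, 41.4 and 17.6 CPM. Tmem176a, a membrane protein gene often found with the type 17 programme, stood at 105, 154, 118 and 228 CPM against at most 3.29 CPM. In DPBS KO, however, the UMIs of its neighbour Tmem176b lay mostly in mixed barcodes, with 3 of 22 left without them.

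Other genes singled out by size of difference need the same care. Of the 20 genes most above the naive-type cells, Ifitm3, Ccl9, Pld4 and Metrnl, which macrophages also make, drew most of their UMIs from mixed barcodes in most libraries. Ifitm3, an antiviral membrane protein gene, went from 138, 64, 402 and 225 UMIs to 1, 2, 69 and 4 when they were left out. Ccl9, a chemokine gene, went from 12, 61, 70 and 42 UMIs to 0, 0, 2 and 0. The other genes of that group were Tmem176a, Tmem176b, Ccr2, S100a6, Ifng, Nkg7, Gna15, Areg, Chst2, Pdcd1, Ccl5, Acot7, Il2rb, Cxcr3, Fgl2 and Ahnak.

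Of the genes of naive and recirculating cells, 15 were tested, and 8, 8, 11 and 8 of them stood at least 2-fold lower in the members of the 4 libraries, where 8.38%, 15.5%, 3.88% and 6.01% of all genes did. Their medians were -1.12, -1.20, -1.56 and -1.21. Lef1, a transcription factor that keeps T cells in the naive state, stood at 154, 154, 70.6 and 103 CPM, against 527, 499, 551 and 507 CPM in naive-type cells. Satb1, a chromatin organiser of naive T cells, stood at 179, 269.6, 149 and 122 CPM against 641, 837, 847 and 765 CPM. Igfbp4, which encodes a growth factor-binding protein, stood at 179, 116, 21.7 and 0 CPM against 665, 757, 601 and 781 CPM. These 3 genes, picked for being low in all 4 libraries, were lower in the members of every library, although Lef1 and Satb1 were still detected in each. Klf2 and S1pr1 were lower in the members of Papain WT, whereas in the other 3 libraries they lay close to the naive-type level, as described below.

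**Figure D2:**
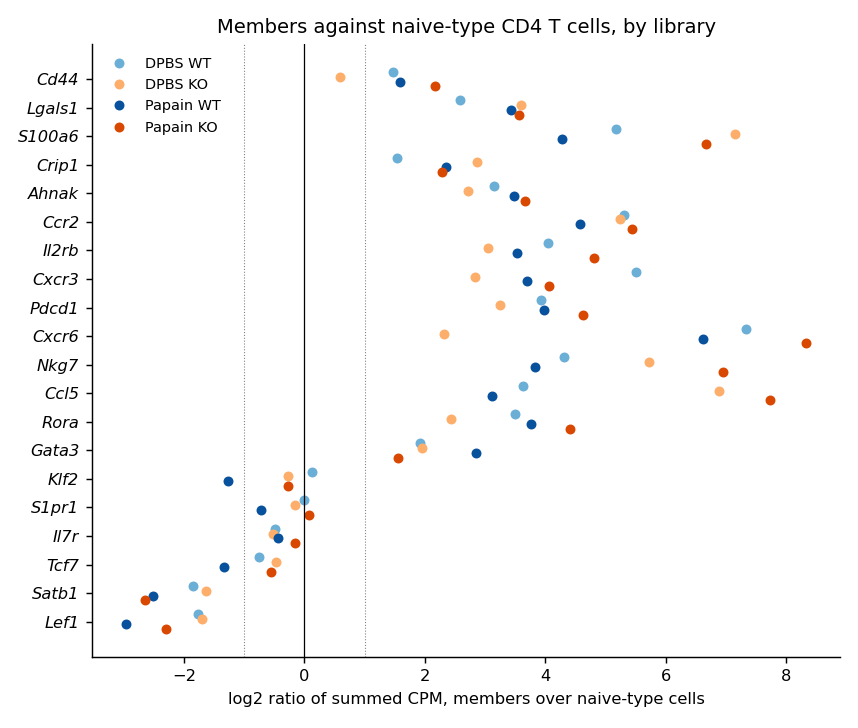
Log2 ratio of summed CPM, members over naive-type cells (horizontal axis), for 20 genes in each library, with dotted lines at 2-fold. S100a6, Ccr2 and Cxcr3 lie far to the right in all 4 libraries, Lef1 and Satb1 to the left, and for Klf2 only Papain WT lies past the 2-fold line.

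Ift20 was the gene deleted in the T cells of KO mice. It lies at chr11:78536361-78541737 (GRCm38, plus strand), and the floxed segment holds exons 2 and 3, so a transcript tagged at its 3′ end can still be counted after the deletion, and these UMIs do not read the deletion itself. In the members Ift20 gave 10, 1, 63 and 7 UMIs, which is 61.6, 7.70, 68.4 and 22.5 CPM. Both KO libraries lay below both WT libraries. KO over WT gave a log2 ratio of -1.60 after papain (-2.98 to -0.48) and, on a single UMI in DPBS KO, -2.999 after DPBS (-8.44 to -0.19). Over both treatments the level was 18.1 CPM in KO (exact Poisson interval 7.84 to 35.8) and 67.4 CPM in WT (52.8 to 84.7). In naive-type cells, with 52.2, 25.5, 49.7 and 18.4 CPM, both KO libraries likewise lay below both WT libraries. Tsg101, whose protein sorts receptors at endosomes, stood at 43.1, 77.0, 76.0 and 61.1 CPM, with a ratio of -0.31 after papain (-1.13 to 0.43).

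In papain-treated lungs the members of the WT library carried a type 2 helper programme that was much lower or not detected in the KO library. Of 4668 genes with at least 40 UMIs over the members of the 4 libraries, 246 (5.27%) were at least 2-fold lower in Papain KO than in Papain WT and 99 (2.12%) at least 2-fold higher, with a median over all genes of -0.04. Of 20 type 2 helper genes, 11 passed the minimum of 40 UMIs, and 6 of them, Il4, Il13, Il1rl1, Pparg, Ccr4 and Cd200r1, passed it only through the UMIs of Papain WT. Of the 11, 8 were at least 2-fold lower and 0 at least 2-fold higher, with a median of -1.76, but 5 of the 8 were among those 6 and so had to be high in Papain WT to enter the list. The remaining 3 were Gata3, Areg and Tnfsf11. These counts describe the list and do not set it apart from other genes. Without the mixed barcodes the median was -2.53. The 3 that did not pass 2-fold were Il4ra, which encodes the IL-4 receptor chain and stood at 70.6 CPM (WT) and 70.7 CPM (KO) after papain, Cd200r1, an inhibitory receptor gene with 29 and 16 UMIs, and Plac8. Plac8, a gene also high in monocytes, went from 520 and 202 UMIs to 201 and 5 UMIs when the mixed barcodes were left out, so its ratio of 0.20 became -3.65.

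Promoter sequences of 3 of these genes are shown, since GATA3 binds sites built on the letters GATA. The windows run from 250 bases before to 50 bases after the annotated start, read 5′ to 3′ on the gene's strand from RefSeq (GRCm38.p6). Capitals mark AGATAA in one form or AGATAG in another, and likewise TGATAA in one form or TGATAG in another, on either strand. Il1rl1 (chr1:40429320-40429619, plus strand) held 5 matches, and Il13 (chr11:53634653-53634952, minus strand) and Il5 (chr11:53720544-53720843, plus strand) held 1 each. A second annotated start of Il1rl1 (chr1:40439379-40439678) held 1 match, and the window of Areg, another gene of the list, held 0.
Il1rl1: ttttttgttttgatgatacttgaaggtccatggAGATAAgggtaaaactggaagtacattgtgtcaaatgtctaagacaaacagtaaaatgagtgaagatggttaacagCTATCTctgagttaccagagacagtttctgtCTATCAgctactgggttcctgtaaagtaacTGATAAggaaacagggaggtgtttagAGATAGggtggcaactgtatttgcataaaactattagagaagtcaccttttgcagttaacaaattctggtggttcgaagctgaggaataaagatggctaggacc
Il13: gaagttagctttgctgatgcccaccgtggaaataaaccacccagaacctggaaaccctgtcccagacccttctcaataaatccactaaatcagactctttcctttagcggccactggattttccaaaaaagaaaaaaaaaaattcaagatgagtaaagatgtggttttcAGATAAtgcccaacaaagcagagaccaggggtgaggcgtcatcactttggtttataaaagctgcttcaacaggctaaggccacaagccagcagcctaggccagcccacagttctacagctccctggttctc
Il5: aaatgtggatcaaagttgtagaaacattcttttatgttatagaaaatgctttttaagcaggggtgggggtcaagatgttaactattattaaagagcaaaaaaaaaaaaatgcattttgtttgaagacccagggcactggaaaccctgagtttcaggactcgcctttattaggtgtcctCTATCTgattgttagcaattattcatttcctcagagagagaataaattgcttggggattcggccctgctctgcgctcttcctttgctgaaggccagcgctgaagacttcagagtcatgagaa
At least 1 match was found in 9778 of 32851 promoter windows of the same length (29.8%), and at least 5 in 18 of them (0.0548%). A match describes the letters only, and binding was not measured here.

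Gata3 (chr2:9857078-9890034, minus strand) gave 30, 31, 414 and 56 UMIs, which is 185, 239, 449 and 180.1 CPM. Papain WT stood above the other 3 libraries, whose intervals overlapped. The log2 ratio of Papain KO to Papain WT was -1.32 (-1.75 to -0.91), and that of Papain WT to DPBS WT was 1.28 (0.75 to 1.87), or 0.85 without the mixed barcodes. A Gata3 UMI was seen in 78 of 110 Papain WT members (70.9%) and 23 of 38 Papain KO members (60.5%). With each cell thinned to 2000 UMIs and 3 shallower cells of Papain WT left out, the shares were 43.0% and 15.8%. B cells, which should lack Gata3, held a UMI in 0.745% (Papain WT, median 4611 UMIs) and 0.668% (Papain KO, median 4982 UMIs). In naive-type cells Gata3 stood between 48.4 and 62.4 CPM in all 4 libraries. The high level in Papain WT was not particular to the members. Cells like the members but with a Foxp3 UMI (10, 3, 39 and 10 cells) stood at 202, 102, 432 and 203 CPM. Those with a Mki67 UMI (16, 6, 28 and 8 cells) stood at 163, 104, 642 and 157 CPM.

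Il1rl1 (chr1:40429570-40465415, plus strand), the gene of the IL-33 receptor ST2, gave 2, 5, 100 and 0 UMIs in the 4 libraries. It was seen in 29 of 110 Papain WT members and 0 of 38 Papain KO members, a count of 0 that allows a share of cells with a UMI of up to 7.89% by the floor of 3 counts (Clopper-Pearson upper limit 9.25%). The level of 109 CPM in Papain WT was at least 11.3-fold higher than in Papain KO, with the latter set at the floor of 3 UMIs. This gap holds for the members as chosen. Cells like the members but with a Ccr7 UMI held 24 Il1rl1 UMIs in 6 of 70 cells of Papain WT (31.9 CPM). In Papain KO such cells held 8 in 3 of 26 cells (35.8 CPM). Cells like the members but without S100a4 held 45 UMIs in 9 of 100 cells and 0 in 45 cells. In B cells a UMI of Il1rl1 was seen in 0.745% (Papain WT) and 0.425% (Papain KO). Naive-type cells stood at 0.955 CPM at most.

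The 3 cytokines of the programme were found in few cells, in which they were abundant. Il4 (chr11:53602982-53618669, minus strand) gave 0, 1, 71 and 0 UMIs, the 71 of Papain WT in 12 cells. Il13 (chr11:53631324-53634702, minus strand) gave 0, 0, 46 in 6 cells and 0 UMIs, and Il5 (chr11:53720794-53725106, plus strand) 0, 0, 23 in 6 cells and 0 UMIs. All but 1 of these UMIs lay in Papain WT. Together they made 140 UMIs in 18 of its 110 members (16.4%, 10.0% to 24.6%), with up to 47 in 1 cell, or 152 CPM (128 to 179). That level was at least 15.8-fold higher than in Papain KO and at least 8.23-fold higher than in DPBS WT, both set at the floor of 3 UMIs. The naive-type cells and the Foxp3-positive CD4 T cells of Papain WT held 1 UMI each. B cells of Papain WT held Il4 in 0.0993%, Il13 in 0.0497% and Il5 in 0%. The count of 0 in Papain KO rests on 38 cells, and its Clopper-Pearson upper limit is a share of 9.25%.

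**Figure D3:**
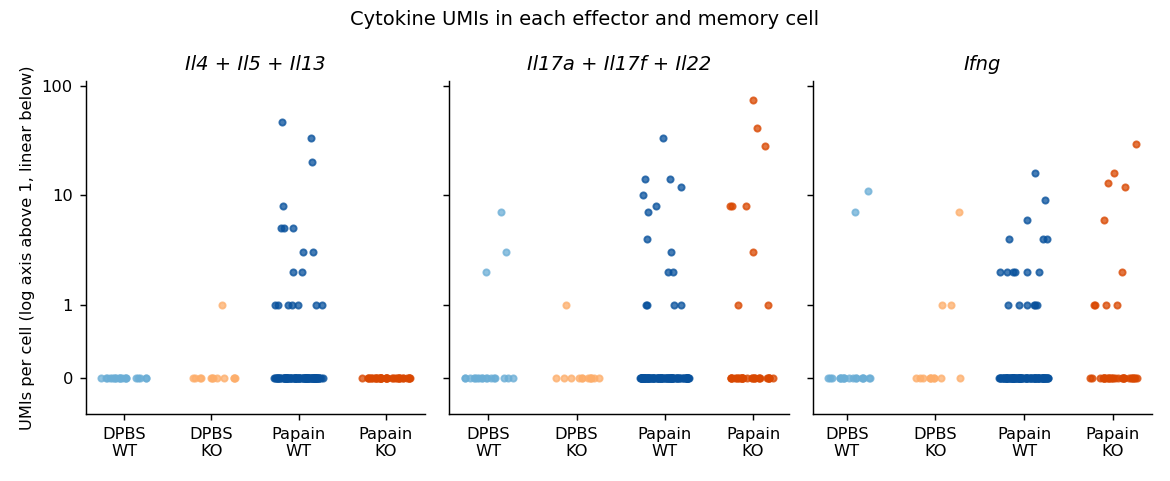
UMIs of type 2 cytokines (Il4, Il5, Il13), type 17 cytokines (Il17a, Il17f, Il22) and Ifng in each member (1 point per cell, spread sideways for sight, logarithmic axis above 1 and linear below) by library. Type 2 UMIs lie in 18 cells of Papain WT and 1 of DPBS KO, while type 17 UMIs and Ifng UMIs are seen in cells of all 4 libraries.

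Other type 2 genes stood lower in Papain KO too. Areg, which encodes amphiregulin, a growth factor of epithelial repair made by type 2 cells, stood at 92.4, 123, 289 and 45.0 CPM, a ratio of KO to WT after papain of -2.66 (-3.57 to -1.91). Ccr4, a chemokine receptor of type 2 cells in lung and skin, stood at 55.4, 69.3, 89.0 and 25.7 CPM, a ratio of -1.76 (-3.05 to -0.75). Pparg, a nuclear receptor required by lung type 2 helper cells, gave 2, 2, 39 and 2 UMIs, a ratio of -2.57 (-5.81 to -0.77), or -3.26 without the mixed barcodes. In these 3 genes Papain WT was the highest library. Papain KO was the lowest for Areg and Ccr4, while Pparg lay below the floor of 3 UMIs in every library but Papain WT. Tnfsf11, which encodes the cytokine RANKL, stood at 49.3, 46.2, 180.2 and 86.8 CPM, a ratio of -1.05 (-1.70 to -0.46) that became -0.93 without the mixed barcodes.

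Within Papain WT the cells with these genes overlapped in part. All 29 members with an Il1rl1 UMI held a Gata3 UMI, against 49 of the 81 without, at median depths of 7776 and 6208 UMIs. Areg was seen in 11 of the 29 and 14 of the 81, Pparg in 13 and 10, and Il2ra, the gene of the high-affinity IL-2 receptor chain, in 12 and 5. Some type 1 genes were rare in them, with Cxcr3 in 1 of the 29 and 29 of the 81, Ccl5 in 0 and 14, and Ifng in 1 and 17. Klf2 was seen in 16 of the 29, with 55 UMIs, and in 63 of the 81, with 528 UMIs. Members with a type 2 cytokine UMI were deeper, with a median of 10646 UMIs against 6183. Of these 18 cells, 10 held Il1rl1, 17 held Gata3, 12 held Pparg and 11 held Areg, with 154 Areg UMIs against 112 in the remaining 92 cells. Not all genes linked to type 1 cells were rare in the 18. Runx3 was seen in 14 of them and Stat4 in 9, against 42 and 41 of the 92. These splits use the same libraries as the comparison above and are given as a description.

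Some activation genes also stood lower in Papain KO. Of 15 tested, 4 were at least 2-fold lower and 0 at least 2-fold higher, with a median of -0.70, and 2 of the 4, Il2ra and Tnfrsf9, met the UMI minimum only through Papain WT. Tnfrsf4, the gene of the costimulatory receptor OX40, stood at 123, 223, 459 and 106 CPM, a ratio of KO to WT after papain of -2.11 (-2.67 to -1.60). Ctla4, an inhibitory receptor gene raised by activation and also high in regulatory cells, stood at 98.5, 154, 381 and 132 CPM, a ratio of -1.53 (-2.04 to -1.06). Il2ra gave 0, 2, 39 and 4 UMIs, a ratio of -1.66 (-3.66 to -0.25). Icos, a costimulatory receptor gene of effector cells, stood in contrast at 240.2, 478, 427 and 444 CPM, a ratio of 0.06 (-0.23 to 0.34). As members were free of Foxp3 UMIs by the rule, regulatory cells in which that transcript was missed may be among them. The list of other regulatory markers summed to 616, 1148, 1369 and 762 CPM, and its part in these ratios was not tested. When members with a UMI of Ikzf2, a gene of regulatory cells, were left out, the type 2, activation and follicular medians kept their sign.

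Several further genes were lower in Papain KO by a wide margin. Rbpj, the DNA-binding partner of Notch receptors, stood at 37.0, 84.7, 182 and 41.8 CPM, a ratio of -2.10 (-3.06 to -1.31). Rgs16, a brake on chemokine receptor signalling, gave 1, 1, 123 and 3 UMIs, a ratio of -3.68 (-6.09 to -2.21). Igfbp7, a secreted binding protein gene, gave 0, 1, 111 and 1 UMIs, a ratio of -4.91 (-10.54 to -2.72). Their UMIs came from 52 cells of Papain WT for Rbpj, 15 for Rgs16 and 17 for Igfbp7, with up to 28 in 1 cell for Rgs16 and 22 for Igfbp7. Outside Papain WT they had 30, 5 and 2 UMIs, so all 3 met the minimum of 40 UMIs only through the library in which they are high, as did Fgl2 with 17. Fgl2, which encodes a secreted immune regulator, stood at 55.4, 30.8, 103 and 12.9 CPM, a ratio of -2.93 (-4.91 to -1.60), or -3.75 without the mixed barcodes. Of 9 follicular helper genes, a programme that sustains B cells in germinal centres, 4 were at least 2-fold lower and 0 higher (median -0.67), and all 4 met the minimum only through Papain WT. These included Pdcd1, the gene of the inhibitory receptor PD-1, at 18.5, 30.8, 129 and 57.9 CPM and a ratio of -1.15 (-1.96 to -0.44), and Il4, which is also on the type 2 list.

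Klf2, S1pr1 and Txk stood higher in Papain KO. Klf2, the transcription factor that drives S1pr1 and keeps T cells in circulation, stood at 1386, 1325, 633 and 1675 CPM, a ratio of 1.40 (1.23 to 1.58). Naive-type cells stood at 1268, 1602, 1529 and 2018 CPM, so among members and naive-type cells those of Papain WT members lay apart. Low Klf2 was not particular to them. Cells like the members but with a Foxp3 UMI stood at 818, 849, 635 and 689 CPM. Those with a Mki67 UMI stood at 600, 887, 691 and 668 CPM. S1pr1, the receptor through which T cells leave tissue, stood at 259, 277, 172 and 273 CPM, a ratio of 0.67 (0.27 to 1.06). Txk, a kinase of T cell receptor signalling, followed the same order, with 117, 100, 36.9 and 99.7 CPM and a ratio of 1.41 (0.68 to 2.18). Of the list of 13 naive and recirculation genes tested, however, only 1 was at least 2-fold higher and 3 were at least 2-fold lower, so the list as a whole gave no single direction (median 0.43).

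Immediate-early genes are switched on within minutes of a stimulus or of tissue handling. For Papain KO over Papain WT their median ratio was 0.55, beside -0.04 for all genes. Of the 17 tested, 3 were at least 2-fold higher and 0 lower, where 2.12% and 5.27% of all genes were. Fos stood at 480.4, 300.4, 358 and 1003 CPM, a ratio of 1.48 (1.26 to 1.71). Jun stood at 647, 269.6, 286 and 614 CPM, a ratio of 1.10 (0.83 to 1.38) after papain but of -1.25 (-1.86 to -0.70) after DPBS. Dusp2, a phosphatase gene induced with them, stood at 308, 247, 186 and 399 CPM, a ratio of 1.10 (0.76 to 1.44). That ratio became -0.34 when members were chosen on counts thinned to 2000 UMIs per cell, with levels still taken from the full counts. Mbnl1, a splicing factor gene, stood at 437, 639, 463 and 1032 CPM, a ratio of 1.16 (0.94 to 1.37). In naive-type cells Mbnl1 also stood higher in the KO libraries, with 416, 659, 499 and 750 CPM.

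**Figure D4:**
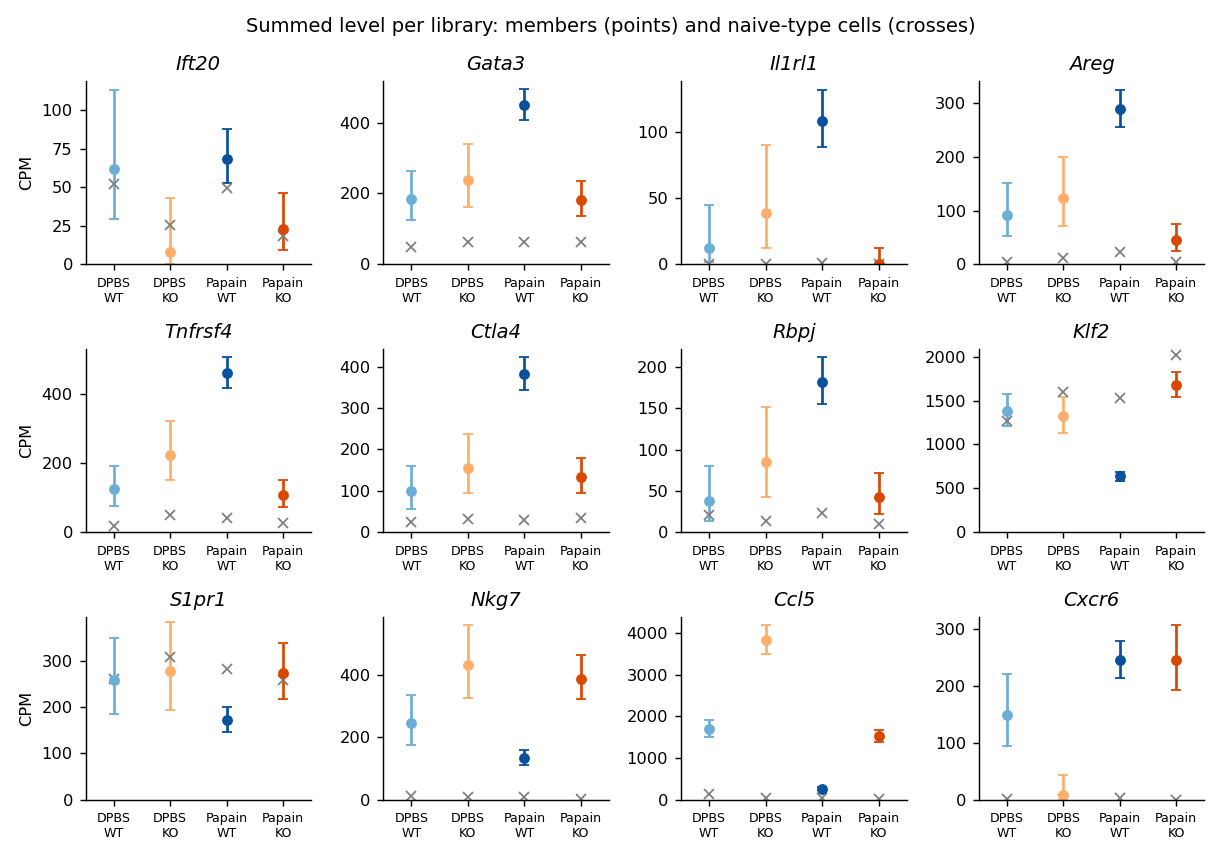
Summed level (CPM, linear axis) of 12 genes in the members of each library (points with exact 95% Poisson intervals) and in naive-type cells of the same library (crosses). Papain WT is the highest library for Gata3, Il1rl1, Areg, Tnfrsf4, Ctla4 and Rbpj and the lowest for Klf2, S1pr1, Nkg7 and Ccl5, while Cxcr6 stood at 244 CPM in both papain libraries.

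Type 1 genes were few, and their levels rested on few cells. Of 10 tested, 3 were at least 2-fold higher in Papain KO than in Papain WT and 0 lower (median 0.37). Nkg7, a granule protein gene of cytotoxic and type 1 cells, stood at 246, 431, 135 and 389 CPM, a ratio of 1.53 (1.16 to 1.90). Ccl5, a chemokine gene of memory and cytotoxic cells, stood at 1706, 3829, 263 and 1524 CPM, a ratio of 2.53 (2.31 to 2.77), or 3.35 without the mixed barcodes, with 383 of its 497 UMIs in DPBS KO in 1 cell. Ifng gave 18, 9, 61 and 82 UMIs in 2, 3, 18 and 10 cells, which is 111, 69.3, 66.2 and 264 CPM. The ratio of Papain KO to Papain WT for Ifng was 1.99 (1.50 to 2.50). It turned to -0.59 when members were chosen on counts thinned to 2000 UMIs per cell, with levels still taken from the full counts. That choice left 59 and 18 members of the papain libraries. In Papain WT, 17 of 18 cells with an Ifng UMI held Nkg7 and 13 held Cxcr3. In Papain KO, 9 of 10 held Nkg7 and 8 held Ccl5. A UMI of Ifng was seen in 0.397% and 0.789% of the B cells of these libraries.

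Type 17 cytokines were more abundant in Papain KO, in 9 cells. Il17a, Il17f and Il22 together gave 12, 1, 113 and 172 UMIs in 3, 1, 15 and 9 members, which is 73.9, 7.70, 123 and 553 CPM. A single cell held up to 33 UMIs (Papain WT) and 74 UMIs (Papain KO). The share of members with a UMI was 13.6% (7.84% to 21.5%) and 23.7% (11.4% to 40.2%), and these intervals overlapped. The ratio of the summed level was 2.17 after papain (1.82 to 2.53) and -3.26 after DPBS (-8.68 to -0.51), the latter against 1 UMI that lay in a mixed barcode. It turned to -2.65 after papain when members with a UMI of Lyz2, Fcer1g, Tyrobp or S100a8 were left out, which kept 45 and 17 members of the papain libraries. The type 17 list of 13 genes gave 3 at least 2-fold higher and 1 lower (median 0.16).

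The type 17 cells shared genes that the cytokines did not choose. In Papain WT, Tmem176b was seen in 12 of the 15 cells and 16 of the other 95, Ccr6, a receptor for mucosal chemokine, in 10 and 9, and Il1r1, the IL-1 receptor gene, in 9 and 2. In Papain KO, Tmem176b was seen in 9 of 9 cells and 9 of the other 29. None of these 9 cells held Nkg7, Ccl5, Ifng or Ift20, which were seen in 16, 15, 10 and 6 of the other 29. Type 2 and type 17 cytokines were not found in the same member of Papain WT, with 0 of the 18 type 2 cells holding a type 17 cytokine UMI. Receptor segments gave no view of clones, since 35 Trbv segments together gave only 12 UMIs over all members.

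In other programmes few or no genes passed 2-fold between the papain libraries, which is near the share of all genes (5.27% lower and 2.12% higher), so these counts do not set the lists apart. Effector and adhesion genes, which set the members apart from naive-type cells, had 0 of 25 past 2-fold in either direction (median 0.05). S100a6 had a ratio of 0.01 (-0.16 to 0.17), Crip1, a zinc-binding protein gene, of 0.07 (-0.07 to 0.20), and Lgals1, the gene of galectin-1, of 0.17 (0.00 to 0.34). Cd44, the hyaluronan receptor that marks memory T cells, had a ratio of 0.02 (-0.31 to 0.35). Cxcr6, a receptor of T cells that stay in the lung, stood at 148, 7.70, 244 and 244 CPM and was seen in 60 of 110 and 28 of 38 members of the papain libraries. Its ratio was 0.00 (-0.39 to 0.38), and the tissue residence list had a median of 0.00 over 13 genes with 1 at least 2-fold lower. T cell receptor signalling genes gave 0 of 19 past 2-fold (median -0.13), genes of PI3K, AKT and mTOR 0 of 12 (median 0.00), the citric acid cycle 0 of 15 (median -0.09), and glycolysis 1 of 15 lower and 0 higher (median -0.20). These are transcript levels, and no signalling activity was measured here.

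**Figure D5:**
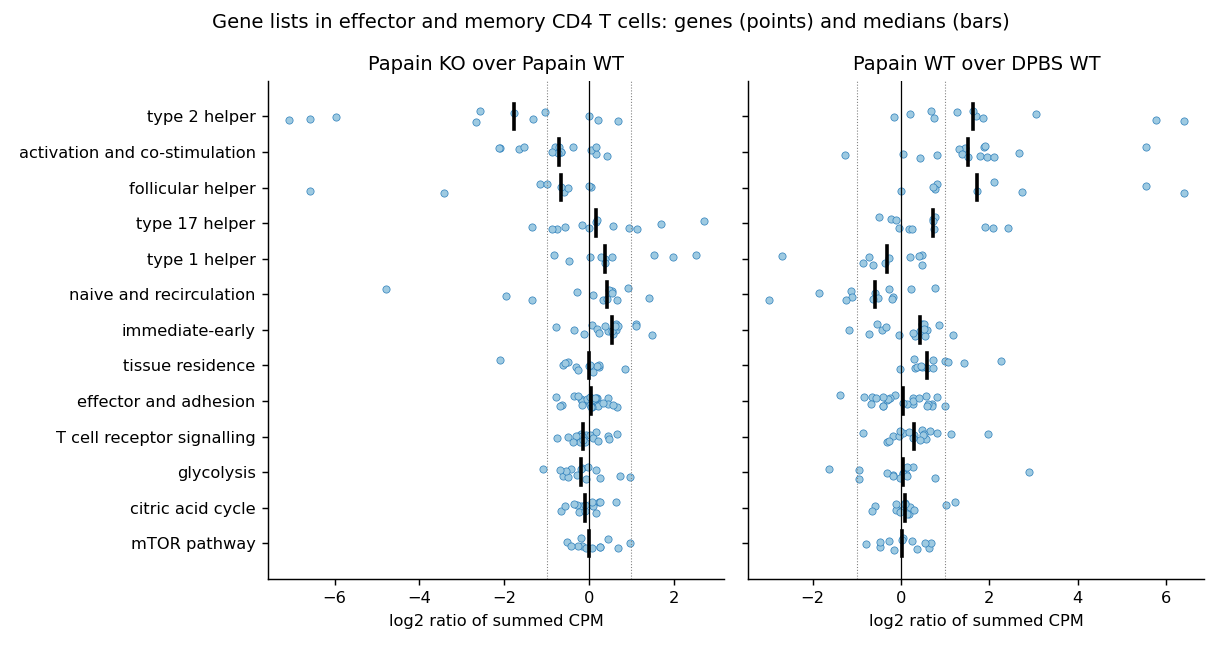
Log2 ratio of summed CPM for each tested gene (points) of 13 lists, with the median of the list (bar) and dotted lines at 2-fold, for Papain KO over Papain WT and for Papain WT over DPBS WT, which share a library. The type 2 median is -1.76 in one and 1.63 in the other, while the mTOR pathway median is 0.00 in the first, and points of genes at 0 in 1 library are fitted values that are not bounds.

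In WT mice the type 2, activation and follicular lists had medians above 0 for papain over DPBS. This comparison shares Papain WT with the one above, so it gives no independent view of those genes, and the DPBS side rests on 20 cells. Of the 4668 genes, 467 (10%) were at least 2-fold higher after papain and 195 (4.18%) at least 2-fold lower. Type 2 genes had 7 of 11 at least 2-fold higher and 0 lower, with a median of 1.63, or 1.43 with genes at 0 in a library set at their bound. Activation genes had 11 of 15 higher and 1 lower (median 1.51, or 1.44 at the bound), and follicular genes 5 of 9 higher and 0 lower (median 1.72, or 1.20 at the bound). Of the genes called higher, 4 of the 7 type 2, 4 of the 11 activation and 4 of the 5 follicular genes passed the UMI minimum only through Papain WT, the library in which they are high. Tnfrsf4 had a ratio of 1.89 (1.25 to 2.62), Ctla4 of 1.94 (1.23 to 2.77), Areg of 1.63 (0.90 to 2.50) and Maf, a factor that drives IL-4 and IL-10, of 2.08 (1.30 to 3.02).

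Signalling feedback genes were also higher in Papain WT than in DPBS WT. Gadd45b, a stress-response gene of NF-κB signalling, stood at 92.4 and 656 CPM (ratio 2.82, 2.09 to 3.67). Nfkb2, which encodes the p100 NF-κB subunit, gave 0 and 89 UMIs, at least 5.23-fold higher, although DPBS KO stood at 146 CPM and Papain KO at 96.5 CPM. Dusp4, a phosphatase that limits MAP kinases, gave 0 and 69 UMIs, at least 4.05-fold higher. Tbc1d4, a regulator of glucose transporter traffic, stood at 18.5 and 179 CPM (3.21, 1.71 to 5.57). With 12 and 34 UMIs outside Papain WT, Dusp4 and Tbc1d4 met the minimum only through it. Lower after papain in WT were Klf2 (-1.13, -1.35 to -0.90), Jun (-1.18, -1.51 to -0.84), Txk (-1.64, -2.52 to -0.77), the costimulatory receptor gene Cd27 (-1.26, -1.89 to -0.61) and the memory T cell membrane protein gene Ms4a4b (-1.01, -1.33 to -0.69). Jun turned to 0.73 when members were chosen on thinned counts, with levels still taken from the full counts. Naive and recirculation genes had 5 of 13 at least 2-fold lower and 0 higher (median -0.59).

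In KO mice the type 2 and activation lists had medians below 0 for papain over DPBS. This comparison shares Papain KO with the genotype comparison and rests on 13 cells of DPBS KO. Of the 4668 genes, 13.2% were at least 2-fold higher and 6.45% at least 2-fold lower. Type 2 genes had 1 of 11 at least 2-fold higher and 5 lower (median -0.69, or -0.40 with 4 lower at the bound), and activation genes 0 of 15 higher and 3 lower (median -0.24). Of these genes, 6 of the 11 type 2 and 4 of the 15 activation genes passed the UMI minimum only through Papain WT. As that library is not in this comparison, these counts cannot show whether the programmes failed to rise in KO. Gata3 had a ratio of -0.40 (-1.07 to 0.27), and Areg of -1.41 (-2.60 to -0.32), which turned to 3.31 when members with a macrophage or neutrophil marker UMI were left out. Il1rl1, at 5 UMIs in DPBS KO and 0 in Papain KO, was at least 3.99-fold lower after papain. Cxcr6 was higher after papain in KO, from 1 UMI to 76 (4.63, 2.47 to 10.31), as was Il18r1, a receptor chain for IL-18, from 23.1 to 177 CPM (2.82, 1.31 to 5.26). Krt83, a keratin gene, gave 0 UMIs in both DPBS libraries, 57 in 30 cells of Papain WT and 26 in 12 cells of Papain KO, at least 3.35-fold and 3.62-fold higher than in DPBS of the same genotype. Whether the response to papain differed between the genotypes was not tested for any gene.

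After DPBS, KO and WT members could be compared only on 13 and 20 cells, and 8.74% of the genes were at least 2-fold higher in KO and 14.5% at least 2-fold lower. Activation genes had 6 of 15 higher and 1 lower (median 0.94), which is the opposite sign from papain. Tnfrsf18, the gene of the costimulatory receptor GITR, stood at 86.2 CPM in WT and 285 CPM in KO (1.69, 0.80 to 2.73), and Samsn1, an adaptor of lymphocyte signalling, at 105 and 408 CPM (1.93, 1.15 to 2.84). Type 2 genes had a median of 0.36, and Gata3 a ratio of 0.36 (-0.40 to 1.14). Tespa1, a thymocyte and T cell signalling protein gene, gave 23 and 2 UMIs (-2.95, -6.33 to -1.18), a ratio that turned to 0.10 when members with a macrophage or neutrophil marker UMI were left out. Cxcr6 gave 24 UMIs in 6 cells of WT and 1 UMI in KO (-3.76, -9.62 to -1.65).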

How the data were processed

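The deposited files were 10x Chromium 3′ v3 matrices of UMI counts, which the authors made with Cell Ranger on mm10 (matrix headers give software version 3.1.0). No normalization had been applied by the authors. Barcodes in them numbered 28805, of which 27544 had more than 200 genes and under 15% mitochondrial UMIs. Doublets were not removed beyond the gate, and an alternative left out the highest Scrublet scores (scanpy 1.11.5, 0.8% expected per 1000 barcodes). No member barcode occurred in more than 1 library.

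UMIs were summed over the members of a library and divided by their total (CPM). Log2 ratios used 0.5 UMI added on average, shared in proportion to the 2 totals, and took genes with at least 40 UMIs over the 4 libraries (160 for members with naive-type cells). Intervals at 95% were exact (Poisson, Clopper-Pearson, scipy 1.17.1). TMM factors came from edgeR 4.0.16 and no count test was run, as each group was 1 library. The ratio script was tested on simulated data.

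The genes named were the 20 highest and 15 lowest against naive-type cells in all 4 libraries, and for each comparison of libraries those furthest past 2-fold by the near end of their interval with at least 10 members holding a UMI and at most 25% of UMIs in 1 cell, plus members of the gene lists, some chosen after their values were seen. The members and lists were chosen with earlier results of these data known. The limits that define mixed barcodes were set after seeing the data, and so was leaving them out as an alternative. Positions are on GRCm38 and promoters from RefSeq. The other alternatives changed the gate, the depth, the filters, the scaling and the averaging. Values of 2 listed genes are not reported here.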

Additional observations from a re-analysis of the deposited data

Results flagged for a closer look

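Opposite differences between the genotypes were seen in Hilpda, Jun and the type 17 cytokines of the members, whose ratios of KO to WT pointed one way after DPBS and the other way after papain, and the difference itself was not tested. Hilpda, a lipid droplet gene induced by low oxygen, stood at 49.3, 369.8, 252 and 90.0 CPM in the 4 libraries (DPBS before papain, WT before KO), with log2 ratios of 2.82 after DPBS (1.82 to 4.20) and -1.48 after papain (-2.11 to -0.92). Jun, an immediate-early transcription factor gene, had ratios of -1.25 after DPBS and 1.10 after papain. The summed type 17 cytokines had ratios of -3.26 after DPBS, against 1 UMI in DPBS KO, and 2.17 after papain. Either side can turn, as the ratio was 1.99 after DPBS without the Ccr7 condition and -2.65 after papain without members holding a macrophage or neutrophil marker UMI. All 3 rest on 13 members of DPBS KO.

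Type 2 cytokine UMIs were also found in cells outside the members, namely cells with Cd3e and S100a4 and without a UMI of Cd4, Cd8a, Cd8b1 or Ccr7. These cells held 22 UMIs of Il4, Il5 and Il13 in Papain WT, in 4 of 81 cells, above the 3 UMIs in 2 of 75 cells of DPBS WT. DPBS KO held 1 UMI in 1 of 51 cells and Papain KO 3 UMIs in 3 of 40 cells. A UMI of Trac was seen in 42 of the 81 cells of Papain WT and one of Trdc, of γδ T cells, in 15.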

How the results depend on the processing

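Of 2690 values recomputed under 16 alternatives, 2474 lay within the limit set for a move. A change of sign was counted only where the interval of the main value excluded 0. Values whose interval held 0 could therefore turn sign and still be among the 2474. The type 2 cytokine level, the share of members and Ift20 kept their sign in every alternative for KO against WT after papain. The cause of the changes below was not tested. With S100a4 at 2 or more UMIs, Ifng in papain against DPBS WT was 0.57. Without the Ccr7 condition (48, 32, 180 and 64 members), KO against WT gave type 17 cytokines of 1.99 after DPBS and 1.40 after papain, Ifng of 1.57 and 1.21, 531 genes past 2-fold after papain, and an intraflagellar transport median of 0.17. Papain against DPBS then gave type 17 cytokines of 2.57 in WT and 1.94 in KO, Ifng of 0.95 and 0.57, and in KO Cd44 of -0.10 and Nfkbia of 0.087.

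In another alternative, members were chosen on counts thinned to 2000 UMIs per cell (14, 5, 59 and 18 members). Levels still came from the full counts, so this changed the cells and not their depth. KO against WT then gave Ift20 of -5.54 (a fitted value with no UMI in Papain KO), Ifng of -0.59 and Dusp2 of -0.34 after papain, and Dnajc2 of -0.60 after DPBS. Papain against DPBS gave type 17 cytokines of 2.36, Cd44 of 0.54, Jun of 0.73 and 9930111J21Rik2 of 1.33 in WT, and Ifng of 0.33, Pim1 of 0.18 and Pfn1 of 0.074 in KO. Without members that held a macrophage or neutrophil marker UMI (3, 4, 45 and 17 left), KO against WT gave 119 genes and type 17 cytokines of -2.65 after papain, and Cd44 of 0.40 and Tespa1 of 0.10 after DPBS. Papain against DPBS WT gave a share ratio of 3.46, type 17 cytokines of 5.36, Ifng of 5.50, Cd44 of 1.24, Rnf13 of 4.24 and 9930111J21Rik2 of 0.13. In KO it gave 446 genes, type 17 cytokines of 1.83, Ifng of 6.51, Areg of 3.31, Pim1 of 0.26 and Nfkbia of 0.98.

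Without members holding innate-like markers, papain against DPBS in KO gave Ifng of 0.81 and Klf2 of -0.14. Without members holding Ikzf2, KO against WT gave Ifng of -2.15 after DPBS and type 17 cytokines of 0.81 after papain, and papain against DPBS gave Ifng of 3.31 in KO. Without the cell richest in the gene, papain against DPBS gave Ifng of 0.13 in WT and 3.25 in KO. Cd44 in papain against DPBS WT, at -0.40, turned to 0.24 without Ikzf2 cells, 0.13 as a mean over cells, 0.39 without its richest cell and 0.62 without mixed barcodes. A minimum of 100 UMIs gave 289, 103, 191 and 236 genes past 2-fold for KO against WT after DPBS and after papain and for papain against DPBS in WT and KO, and a minimum of 1 UMI gave 4478, 4586, 5361 and 4726. TMM scaling and 2 added UMIs turned no sign among values whose interval excluded 0, and medians close to 0 could turn.

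No paired analysis was possible because each group was 1 library. Depth limits the DPBS libraries most, where the 3-UMI floor is 18.5 and 23.1 CPM.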

Other observations

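Cells that met every condition on the members except the absence of Mki67, a marker of dividing cells, numbered 16, 6, 28 and 8 in the 4 libraries, in the order DPBS before papain and WT before KO. They held 4, 0, 54 and 0 UMIs of type 2 cytokines, 2, 0, 241 and 50 UMIs of type 17 cytokines, and 221, 26, 24 and 9 UMIs of Ifng. Il1rl1 was seen in 0, 1, 10 and 1 of them. As in the members, type 2 cytokine UMIs of dividing cells were seen in Papain WT and not in Papain KO, where a count of 0 stands on 8 cells.

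Foxp3-positive CD4 T cells with S100a4 numbered 10, 3, 39 and 10 in the 4 libraries and held 9, 7, 95 and 15 UMIs of Il1rl1, in 6, 2, 25 and 2 cells. Il1rl1, at 0 UMIs in the members of Papain KO, was therefore present in regulatory-type cells of that library. It was also present there in 3 of 26 cells with both S100a4 and Ccr7. CD4 T cells with neither S100a4 nor Ccr7 held 3, 0, 30 and 0 UMIs of type 2 cytokines, and those with both held 0, 0, 4 and 1.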
